A study of Mus musculus with 8 samples.

Results

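The Egr and Nr4a families are immediate early transcription factors, whose genes are switched on within minutes of a stimulus without new protein synthesis. The set described here is *Egr1*, *Egr2*, *Egr3*, *Egr4*, *Nr4a1*, *Nr4a2* and *Nr4a3*, 7 of the 56691 genes listed in a table of read counts from mouse cerebellum. The genes were found by their symbols in a GENCODE mouse annotation, and the set was chosen by its measured difference between *Atm*-WT and *Atm*-KO mice, so every value of that difference is a description, and counts of calls among the 7 are given to describe them and support nothing. Cerebellar RNA was sequenced in 4 *Atm*-WT mice (ATM +/+, labelled 2M, 7M, 13M and 32M) and 4 *Atm*-KO mice (ATM -/-, labelled 1M, 7F, 11M and 12M), each giving 1 library. The animals were 6 months old, of the B6;129S4-Atmtm1Bal/J line, a germline mutation rather than one of neurons alone, and no drug treatment is named for these libraries. ATM is the protein kinase lost in ataxia-telangiectasia, and the study asked how its absence alters the cerebellum. The letter F marks 1 *Atm*-KO mouse only, so sex was not balanced between the genotypes.

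Egr proteins bind GC-rich DNA through zinc fingers, and are held in check by the Nab co-repressors. Nr4a proteins are orphan nuclear receptors that act without a known physiological hormone, as monomers, as pairs or, for Nr4a1 and Nr4a2, together with a retinoid X receptor. In neurons both families follow calcium entry and growth factor signalling, through the ERK cascade acting on SRF with its ternary complex factors and through CREB. In the cerebellum they are induced in granule and other neurons by synaptic activity.

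Such signals act in part through sequence before transcription start sites, and it is shown for the genes with a stretch clear of annotated exons that holds a match to the motifs marked here. RefSeq promoter windows, of 250 bases before to 50 after a gene's start (table of build GRCm38.p6), were found for 5 of the 7 genes: *Egr2*, *Egr4*, *Nr4a1*, *Nr4a2* and *Nr4a3*. *Egr2* had 5 windows, so that there were 9 in all, and each matched exactly 1 place in GRCm39, the build of the counts. Their starts are those RefSeq lists, and some are internal to the gene as GENCODE annotates it. That of *Nr4a1* lies 12747 bases past the first base of the gene, and 4 of the 5 *Egr2* starts lie 2091 to 2455 bases past it, against 24 to 316 bases for the other 4 windows. Capitals mark TGACG, the core of the cAMP response element bound by CREB, on either strand (CGTCA where it lies on the other) and, in *Egr2*, also the CArG box bound by SRF. The stretches of *Nr4a3* and *Egr4* end just before the first base of the gene, whereas that of *Egr2* lies inside the gene, before internal starts. All 3 sequences run 5′ to 3′ on the strand of the gene, at chr4:48045055-48045152 (+), chr6:85490676-85490821 (-) and chr10:67373592-67373691 (+) of GRCm39.
Nr4a3: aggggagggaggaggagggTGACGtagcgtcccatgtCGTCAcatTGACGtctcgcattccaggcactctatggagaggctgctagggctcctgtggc
Egr4: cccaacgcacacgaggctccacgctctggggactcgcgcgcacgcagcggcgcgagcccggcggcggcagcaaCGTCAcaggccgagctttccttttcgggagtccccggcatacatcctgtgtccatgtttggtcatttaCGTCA
Egr2: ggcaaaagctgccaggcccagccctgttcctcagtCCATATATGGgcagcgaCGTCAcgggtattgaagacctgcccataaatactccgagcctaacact

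Over the whole windows, TGACG was found 4 times each in *Nr4a1*, *Nr4a2* and *Nr4a3* and 2 times in *Egr4*, counting both strands. In *Nr4a3* the matches began 231, 213, 205 and 147 bases before the start, and in *Egr4* 177 and 109 bases before it. Of the 5 windows of *Egr2*, 3 overlapped around the stretch shown, and each of these held TGACG 2 times and the CArG box once. Another *Egr2* window held a CArG box 72 bases before its start and no TGACG, and the fifth held neither. Of all 32851 windows in the table, 20.8% held at least 1 TGACG and 0.231% held at least 4, a number chosen after the matches were seen. The CArG box was found in 1.63% of all windows. Among the other motifs searched on both strands, the Egr site GCGGGGGCG, present in 2.91% of windows, was found once, in *Nr4a1*. A TATAAA, present in 13.6%, was found once, in *Nr4a2*. Neither the full element TGACGTCA (1.79% of windows), the Egr site GCGTGGGCG (0.612%) nor the Nr4a site AAAGGTCA (1.51%) was found in any of the 9 windows. TGACG lies within TGACGTCA, so the counts of these motifs are not separate. A match is a description of letters in the window, and its absence says nothing of the factor.

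Counts were scaled as CPM, each library being divided by its total and its TMM factor so that all libraries stand on the same scale. Totals were 76912738 to 88030300 counts in *Atm*-WT libraries and between 65967130 and 78431478 in those of *Atm*-KO mice. The targeted gene *Atm* was at 67.6, 80.0, 79.4 and 59.0 CPM in *Atm*-WT mice 2M, 7M, 13M and 32M, and *Atm*-KO mice all lay below, at 51.1, 44.3, 41.1 and 44.9 CPM in 1M, 7F, 11M and 12M. Granule cell markers summed to 4883 to 5658 CPM in the first genotype and 4903 to 6159 CPM in the second, and Purkinje cell markers to 9492 to 11484 and 9294 to 11048 CPM.

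Every one of the 7 genes had a lower mean in *Atm*-KO than in *Atm*-WT mice. The means were lower by between 21.6% (*Egr2*) and 44.6% (*Nr4a3*), and their median log2 fold change was -0.71, beside -0.02 over the 22423 genes tested. A lower mean alone was shared by 53.1% of all genes tested. Over 5 bands of mean level the share ran from 36.8% in the lowest, which holds *Egr2*, through 62.8% in the band of *Egr1*, *Nr4a2* and *Nr4a3*, to 71.0% in the highest, and since the set was chosen on this contrast nothing is read from its count. A gene was called where its Benjamini-Hochberg adjusted p was under 0.05 and its log2 fold change passed 0.5 in size. By edgeR, 0.0178% of all genes were called and none of the 7 was. Nor was the targeted gene *Atm* called by edgeR, at a log2 fold change of -0.66 ± 0.10 (SE) and an adjusted p of 0.0775. In edgeR 4 of the 7, *Egr1*, *Nr4a1*, *Nr4a2* and *Nr4a3*, had an unadjusted p under 0.05, as did 4524 of all genes tested (20.2%). DESeq2, which called 4.8% of its genes at the same thresholds, called 1 of the 7, *Nr4a1*. Limma, after voom or cyclic loess, called 0.0134% of genes and 0 of the 7. For none of the 7 did all *Atm*-KO mice lie below all *Atm*-WT mice, a pattern seen in 5.12% of all genes, with 6.47% in the other direction. With 1 mouse left out, 0 to 2 of the 7 had no overlap, beside 6.12% to 8.43% of all genes tested. In bulk tissue, fewer cells of a type and less RNA per cell cannot be told apart.

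**Figure D1:**
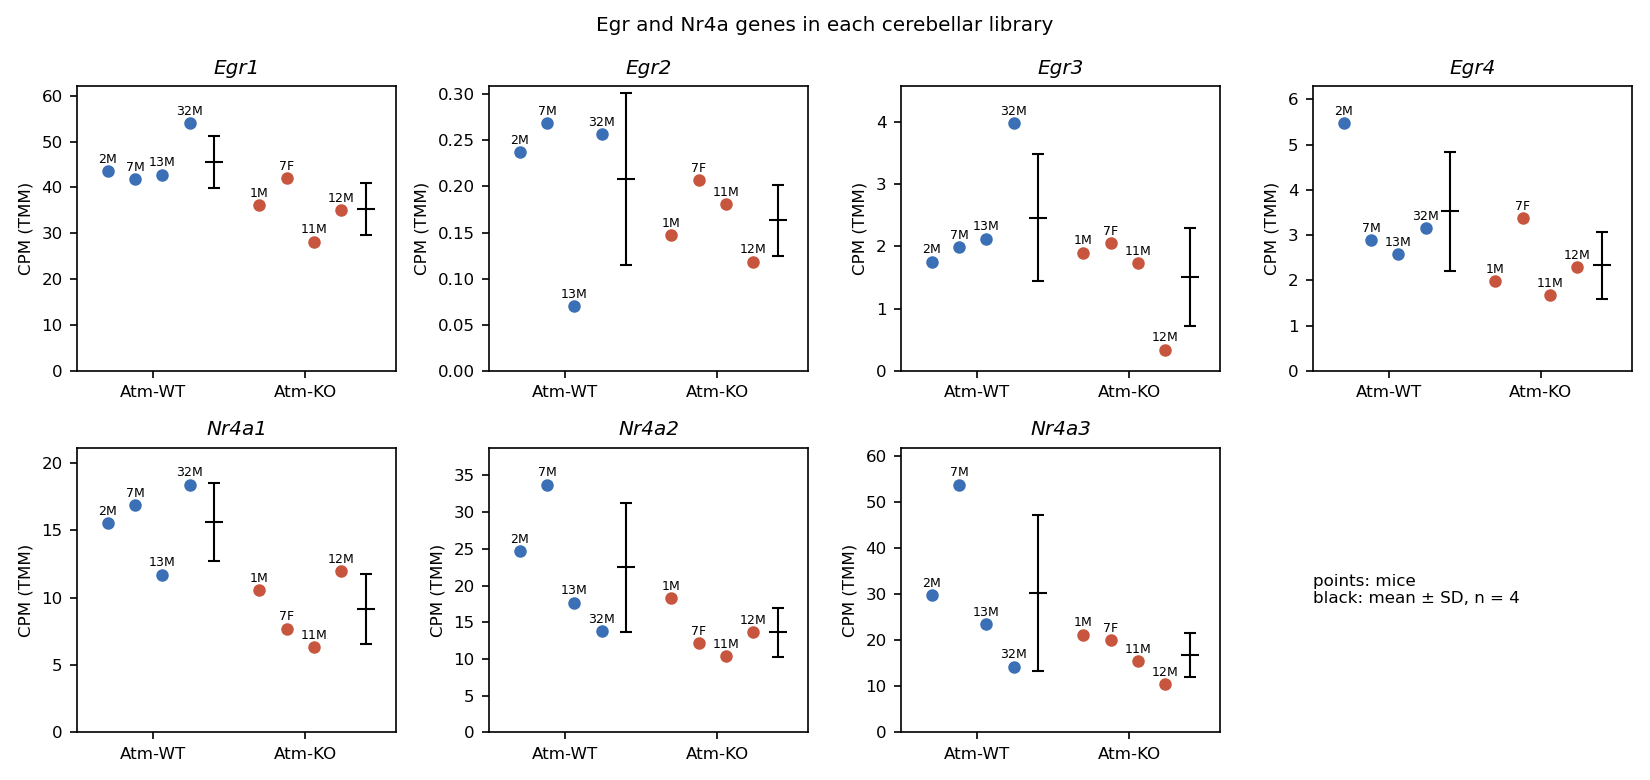
TMM-scaled CPM of the 7 genes (vertical axes from 0, a separate scale in each panel) in 4 Atm-WT mice (blue) and 4 Atm-KO mice (red), each point a mouse named by its label, with the mean ± SD in black. All 7 means are lower in Atm-KO mice, and the points of the genotypes overlap in every panel.

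Levels of different genes were compared per length, as CPM per kilobase of annotated exons (RPKM). *Egr1* was the most abundant, at 10.1 ± 1.27 RPKM in *Atm*-WT mice (mean ± SD, n = 4). *Nr4a3* followed at 5.07 ± 2.82 RPKM, *Nr4a2* at 2.74 ± 1.07 RPKM and *Nr4a1* at 1.43 ± 0.262 RPKM. The order ended with *Egr4* at 0.754 ± 0.282 RPKM, *Egr3* at 0.523 ± 0.217 RPKM and *Egr2* at 0.0611 ± 0.0273 RPKM. Within mice, *Egr1* was above *Nr4a3*, *Nr4a3* above *Nr4a2* and *Egr3* above *Egr2* in 8 of 8. *Nr4a2* was above *Nr4a1* in 7 of 8 mice, *Nr4a1* above *Egr4* in 7 of 8 and *Egr4* above *Egr3* in 6 of 8. Between mice, the *Atm*-WT ranges of *Nr4a3* (2.38 to 8.99 RPKM), *Nr4a2* (1.68 to 4.11 RPKM), *Nr4a1* (1.07 to 1.685 RPKM), *Egr4* (0.553 to 1.17 RPKM) and *Egr3* (0.373 to 0.845 RPKM) each overlapped the next, whereas *Egr1* and *Egr2* stood clear of their neighbours. With the longest transcript as the length, *Nr4a2* was at 4.22 and *Nr4a1* at 2.36 RPKM, and the order of the 7 genes was the same.

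*Egr1*, whose transcript was the most abundant of the set, encodes a zinc finger activator long used as a mark of neuronal activity. It was at 43.5, 41.8, 42.8 and 54.0 CPM in *Atm*-WT mice 2M, 7M, 13M and 32M, and at 36.2, 42.0, 28.1 and 35.0 CPM in *Atm*-KO mice 1M, 7F, 11M and 12M. Mouse 32M stood above the other *Atm*-WT mice, while 3 of 4 *Atm*-KO mice lay below every *Atm*-WT mouse and 7F lay just above the lowest of them. The means were 45.5 ± 5.70 and 35.3 ± 5.70 CPM (SD, n = 4 each), a log2 fold change of -0.37 ± 0.12 (SE). Without mouse 7F the genotypes no longer overlapped, and the log2 fold change was -0.44.

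*Egr2*, known for its part in peripheral myelination and hindbrain patterning, was barely detected. Its CPM were 0.238, 0.269, 0.0699 and 0.257 in *Atm*-WT mice 2M, 7M, 13M and 32M, and 0.147, 0.207, 0.181 and 0.118 in *Atm*-KO mice 1M, 7F, 11M and 12M. Mouse 13M was the lowest of all 8, and the other *Atm*-WT mice lay above every *Atm*-KO mouse. These levels rest on 6 to 22 counts per library. All 8 counts were even, as were 67.3% to 73.3% of all counts from 1 to 50, and whether both reads of a pair were counted is not given in the sources used here. If they were, 6 to 22 counts stand for 3 to 11 fragments. With all counts halved, *Egr2* did not pass the filter on low counts, and with counts as deposited its log2 fold change of -0.34 ± 0.47 (SE) was smaller than its error. It was -0.62 without *Atm*-WT mouse 13M and -0.20 without *Atm*-WT mouse 7M.

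*Egr3*, a relative of *Egr1* induced by activity and needed for muscle spindles, was at 1.75, 1.99, 2.12 and 3.98 CPM in *Atm*-WT mice and 1.90, 2.05, 1.73 and 0.340 CPM in *Atm*-KO mice, in the same order. Of the 8 mice 6 lay close together whatever their genotype, while 32M was high among *Atm*-WT and 12M low among *Atm*-KO mice. Mouse 12M had 23 counts of *Egr3*, and the other 7 mice had 133 to 341. The means were 2.46 ± 1.02 and 1.505 ± 0.787 CPM, a log2 fold change of -0.71 ± 0.44 (SE), which was -0.37 without *Atm*-WT mouse 32M and -0.38 without *Atm*-KO mouse 12M.

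*Egr4*, an activity-induced member best known in the testis, was at 5.48, 2.89, 2.59 and 3.16 CPM in *Atm*-WT mice and 1.98, 3.37, 1.68 and 2.29 CPM in *Atm*-KO mice. Mouse 2M was highest, and 3 of 4 *Atm*-KO mice lay below every *Atm*-WT mouse, with 7F among the *Atm*-WT values. The log2 fold change was -0.60 ± 0.28 (SE). It was -0.31 without *Atm*-WT mouse 2M and -0.81, with no overlap, without *Atm*-KO mouse 7F. Of the 4677 exon bases of *Egr4*, 21.6% are shared with *Gm67895*, a noncoding gene of the other strand, and reads from this pair cannot be told apart because the counting's strand setting is not given. This overlap and the exon lengths are those of GENCODE vM39, and the counts were made with another release, which may list other genes and exons.

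*Nr4a1* encodes Nur77, a receptor induced by calcium and by growth factors. Its CPM were 15.5, 16.8, 11.7 and 18.4 in *Atm*-WT mice 2M, 7M, 13M and 32M, and 10.6, 7.69, 6.34 and 11.96 in *Atm*-KO mice 1M, 7F, 11M and 12M. The genotypes overlapped through a single pair, with *Atm*-KO mouse 12M just above *Atm*-WT mouse 13M. The means were 15.6 ± 2.86 and 9.14 ± 2.57 CPM, a log2 fold change of -0.77 ± 0.20 (SE). Without *Atm*-WT mouse 13M or *Atm*-KO mouse 12M the genotypes no longer overlapped, and the log2 fold change was -0.87 and -0.93. Its exons share 6.02% of their bases with the opposite-strand noncoding gene *Gm63180*.

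*Nr4a2* encodes Nurr1, which maintains midbrain dopamine neurons. It was at 24.7, 33.7, 17.7 and 13.8 CPM in *Atm*-WT mice 2M, 7M, 13M and 32M, and at 18.3, 12.2, 10.4 and 13.6 CPM in *Atm*-KO mice 1M, 7F, 11M and 12M. Here 3 of 4 *Atm*-KO mice lay below every *Atm*-WT mouse, and 1M lay between 13M and 2M. The means were 22.5 ± 8.76 and 13.6 ± 3.37 CPM, a log2 fold change of -0.72 ± 0.25 (SE). It was -0.46 without *Atm*-WT mouse 7M and -0.90, with no overlap, without *Atm*-KO mouse 1M.

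*Nr4a3* encodes NOR1, the third receptor of the family. It was at 29.8, 53.8, 23.5 and 14.3 CPM in *Atm*-WT mice 2M, 7M, 13M and 32M, and at 21.2, 20.0, 15.4 and 10.6 CPM in *Atm*-KO mice 1M, 7F, 11M and 12M. Mouse 7M was highest, well above the rest, while 32M lay below 3 of the 4 *Atm*-KO mice. The means were 30.3 ± 16.9 and 16.8 ± 4.86 CPM, and the log2 fold change of -0.85 ± 0.34 (SE) was the largest in size of the 7. It was -0.42 without *Atm*-WT mouse 7M and -1.09, with no overlap, without *Atm*-WT mouse 32M.

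**Figure D2:**
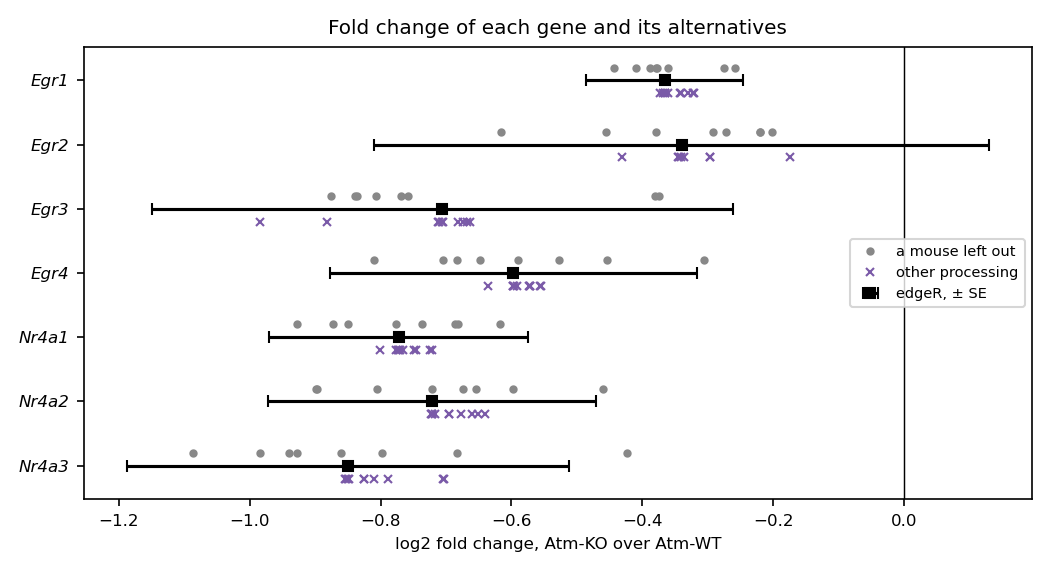
Log2 fold change of Atm-KO over Atm-WT (horizontal axis) for each of the 7 genes, with the edgeR value ± SE as black squares, fits with 1 mouse left out as grey points and other processing as crosses. All fits lie below 0, from -1.09 to -0.17, and only the SE of Egr2 crosses 0.

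Mice of a genotype differed in 6 of these 7 genes more than in the median gene at a like level. The set was chosen for a difference between means of these same mice, a choice that favours genes of large spread, so the spread is a description and supports nothing. The SD of log2 CPM about the genotype mean (6 degrees of freedom) was 0.65 for *Nr4a3* and 0.47 for *Nr4a2*, where the median of genes in the same band of level was 0.13 (genes tested were cut into 5 bands of equal size by mean level). These SDs stood at the 99.2 and 98.4 percentile of that band, and at or above the 98.5 and 96.9 percentile with any 1 mouse left out, a check chosen after seeing the data. *Egr3*, at 0.92, stood at the 97.1 percentile of its band, *Egr4* at the 87.6, *Egr1* at the 84.7 and *Nr4a1* at the 79.8. *Egr2*, with an SD of 0.59, stood at the 44.7 percentile, close to the median of its band, 0.62. Between the lowest and the highest of the 8 mice the CPM differed 11.7-fold for *Egr3*, 5.10-fold for *Nr4a3* and 1.92-fold for *Egr1*. The values of *Egr3* rest on mouse 12M, without which its SD was 0.41, beside a median of its band of 0.39, and its range 2.30-fold. Without mouse 13M the SD of *Egr2* was 0.24.

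**Figure D3:**
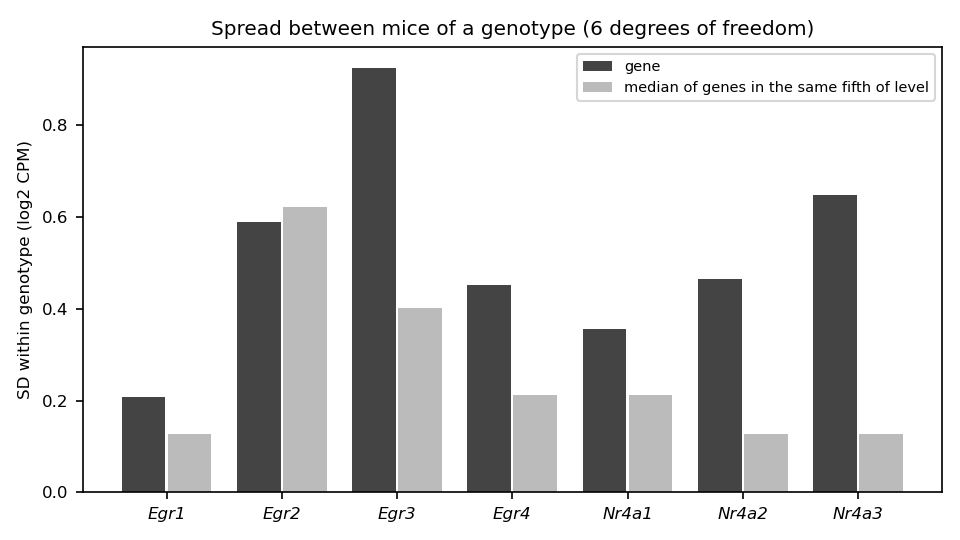
SD of log2 CPM between mice of the same genotype (vertical axis, pooled over both genotypes) for each of the 7 genes (dark bars) beside the median SD of all tested genes in the same of 5 bands of mean level (light bars). The dark bar is the higher for every gene but Egr2.

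The genes did not all follow the same mice. *Egr1*, *Egr3* and *Nr4a1* were highest of all 8 mice in *Atm*-WT mouse 32M, whereas *Nr4a2* and *Nr4a3* were lowest there among the *Atm*-WT mice. *Atm*-KO mouse 11M was the lowest of its genotype for 4 genes and 12M for 3. *Nr4a2* and *Nr4a3* both ran 7M, 2M, 13M, 32M from high to low in *Atm*-WT mice, and 1M was the highest *Atm*-KO mouse for both. Across the 8 mice, with the genotype means removed, their log2 CPM had a Pearson r of 0.81 (exact permutation p = 0.0469, two-sided, over 576 arrangements within genotypes). With mice ranked separately within each genotype, the correlation of these ranks was 0.7 (exact permutation p = 0.111). Over the 21 pairs of the 7 genes the Benjamini-Hochberg adjusted p was 0.861 and no pair passed. With 1 mouse left out r ranged from 0.63 to 0.92. It was 0.45 without the 2 mice farthest from the median of *Nr4a2*, a choice that narrows the range and so cannot show where the relation rests.

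Some genes outside the set shared these orders of mice in part, and the 4 named here were chosen after their values were seen. *Eomes*, a transcription factor of unipolar brush cells, was at 24.9, 27.2, 17.1 and 13.2 CPM in *Atm*-WT mice 2M, 7M, 13M and 32M, the order of *Nr4a2* and *Nr4a3*, and at 12.2, 14.1, 10.9 and 10.1 CPM in *Atm*-KO mice 1M, 7F, 11M and 12M. Its means of 20.6 ± 6.57 and 11.8 ± 1.75 CPM gave a log2 fold change of -0.80 ± 0.20 (SE), not called by edgeR. The 4 unipolar brush cell markers together summed to 521 to 640 CPM in *Atm*-WT mice and 554 to 636 CPM in *Atm*-KO mice, and 2 were lower and 2 higher. *Fos*, *Fosb* and *Junb* were, as *Egr1*, *Egr3* and *Nr4a1* were, highest in mouse 32M, at 31.1, 7.58 and 14.1 CPM. Without mouse 32M the log2 fold change was -0.27 for *Egr1*, -0.37 for *Egr3*, -0.69 for *Nr4a1*, -0.90 for *Nr4a2* and -1.09 for *Nr4a3*. The part of unipolar brush cells in these values was not tested.

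**Figure D4:**
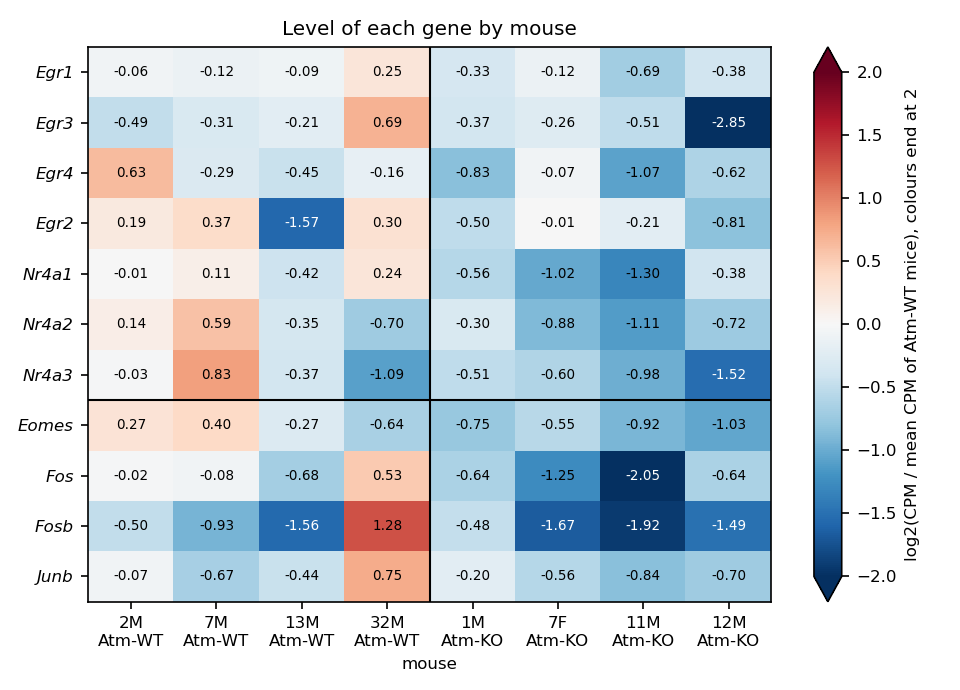
Log2 of the CPM of each mouse over the mean of the Atm-WT mice (colour, with the value printed in each cell; colours end at 2 on either side) for the 7 genes and, under the line, for Eomes, Fos, Fosb and Junb. Mouse 32M is red for Egr1, Egr2, Egr3, Nr4a1, Fos, Fosb and Junb and blue for Egr4, Nr4a2, Nr4a3 and Eomes.

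By a fixed rule, the genes most like the set were those with the highest Pearson r, over the 8 mice and with genotype means removed, among 11696 genes with a mean of at least 5 CPM. For the mean profile of the 7 genes these were *Stx8* (r = 0.96), *Zfp664* (0.95), *U2af2* (0.95), *Dcun1d2* (0.92) and *Sdccag8* (0.92). For *Egr1*, the most abundant Egr gene, they were *Ostc* (0.96), *Psmg2* (0.95) and *BC002059* (0.95). For *Nr4a3*, the most abundant Nr4a gene, they were *Sike1* (0.99), *Cep97* (0.98) and *Urb2* (0.98). They were picked as the highest of many over only 8 mice, so their r is a description without a test.

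Signals reach these genes through kinases and the factors that bind their promoters. For transcripts of those kinases and factors the median log2 fold changes lay near that of all genes, -0.02. Transcript levels do not give the activity of these proteins, which was not measured here. No gene of any of the 9 lists in the next sentences was called by edgeR. Of 10 ERK cascade kinases 6 were lower and 4 higher, the median log2 fold change being -0.04. *Mapk3*, which encodes ERK1, had the largest at -0.31 ± 0.09 (SE), without overlap between genotypes. Of 8 genes of the calcium and CaM kinase route 5 were lower and 3 higher (median -0.01), and *Camk2a*, a kinase subunit activated by calcium, was at -0.29 ± 0.12, also without overlap, and at -0.16 without *Atm*-KO mouse 12M. Among 6 genes of SRF and its ternary complex factors 3 were lower and 3 higher (median -0.06), led by the SRF coactivator gene *Mrtfb* at -0.19 ± 0.09, which was -0.12 without *Atm*-WT mouse 13M. Among 8 CREB factors and coactivators 6 were lower and 2 higher (median -0.08), and *Crtc2*, a CREB coactivator, was at 0.35 ± 0.12.

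Partners and targets of the factors were described in the same way. The co-repressor gene *Nab1* had a log2 fold change of -0.14 ± 0.08 (SE), and *Nab2* of 0.05 ± 0.10, and these were -0.08 without *Atm*-WT mouse 7M and -0.03 without *Atm*-KO mouse 12M. Of the 3 retinoid X receptor genes, *Rxra* was at 37.4 ± 2.44 CPM in *Atm*-WT mice and 27.1 ± 5.86 CPM in *Atm*-KO mice, without overlap, at a log2 fold change of -0.46 ± 0.14. Of 7 known Egr targets 6 were lower and 1 higher (median -0.18), and the largest value was that of *Icam1*, a cell adhesion gene, at -0.43 ± 0.34, which was -0.00062 without *Atm*-WT mouse 7M. *F3*, which encodes tissue factor, and *Tgfb1*, a growth factor gene, were the 2 of these 7 targets with every *Atm*-KO mouse below every *Atm*-WT mouse (5.12% of all genes), at -0.42 ± 0.10 and -0.40 ± 0.15. Of 5 dopamine neuron genes controlled by Nurr1 in the midbrain 4 were lower and 1 higher. Among the lower ones, *Slc6a3* (-1.76 ± 0.70) and *Ret* (-0.14 ± 0.07) had every *Atm*-KO mouse below every *Atm*-WT mouse (5.12% of all genes). *Slc6a3* was barely detected, at 0.251 ± 0.133 CPM in *Atm*-WT mice and 0.0744 ± 0.0633 CPM in *Atm*-KO mice. The higher gene, the monoamine transporter gene *Slc18a2*, was at 0.929 ± 0.557 CPM in *Atm*-WT mice and 3.36 ± 3.32 CPM in *Atm*-KO mice, where 7F and 11M had 6.98 and 5.36 CPM and the others less than 1.

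Of 20 other immediate early genes 18 were lower and 2 higher in *Atm*-KO mice, their median log2 fold change being -0.50. The largest was that of *Fosb*, a partner of Jun proteins, at -1.28 ± 0.55 (SE), with 3.12 ± 3.01 and 1.29 ± 0.645 CPM in *Atm*-WT and *Atm*-KO mice. It was -0.34 without *Atm*-WT mouse 32M, which had 7.58 CPM where the other *Atm*-WT mice had 1.06 to 2.22. Of the 20, 12 had an unadjusted p under 0.05 in edgeR (20.2% of all genes tested did). In 4 of them, *Klf4*, *Csrnp1*, *Sik1* and *Ier3*, every *Atm*-KO mouse lay below every *Atm*-WT mouse (5.12% of all genes). The list was chosen with these results known, so its counts are a description. *Npas4*, a factor induced in neurons by calcium, and *Klf10* were the 2 with a higher mean, at 0.46 ± 0.34 (0.16 without *Atm*-KO mouse 12M) and 0.15 ± 0.09. *Arc*, a synaptic gene driven by Egr proteins, was at 19.3 ± 3.24 CPM in *Atm*-WT mice and 18.3 ± 1.10 CPM in *Atm*-KO mice.

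**Figure D5:**
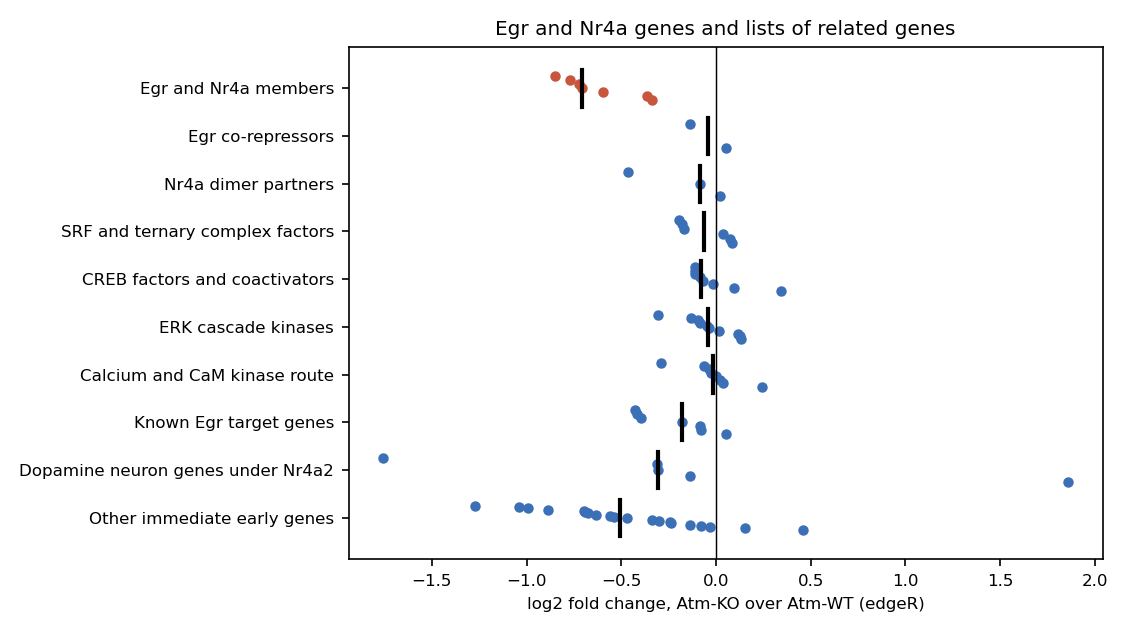
Log2 fold change of Atm-KO over Atm-WT in edgeR (horizontal axis) for the 7 Egr and Nr4a genes (red) and for the tested genes of 9 related lists (blue), each point a gene and each bar a median. The medians are -0.71 for the 7 genes, -0.50 for the other immediate early genes and -0.31 to -0.01 for the remaining lists.

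Other groups of genes also differed in mean between the genotypes, and their part in the values of the 7 genes was not tested. All 9 glucocorticoid response genes were lower in *Atm*-KO mice (median log2 fold change -0.75), with sums of 725 to 1185 CPM in *Atm*-WT mice and 510 to 685 CPM in the others. The mitochondrial share of counts lay between 0.903% and 1.20% in *Atm*-WT libraries, and for *Atm*-KO mice between 0.565% and 0.952%, 3 of 4 of them below every *Atm*-WT library. All 8 RNAs kept in the nucleus were higher (median 0.72), with sums of 4860 to 9663 CPM and 10204 to 15864 CPM, and 1 of them, *Neat1*, was called by edgeR. Of 14 circadian clock genes 11 were lower and 3 higher (median -0.22). All 8 microglia markers were lower, with sums of 140 to 187 CPM against 107 to 142 CPM, as were all 6 choroid plexus markers, with sums of 789 to 1575 and 430 to 1224 CPM. All 7 mural cell markers were lower (151 to 198 and 117 to 161 CPM), as were 6 of 7 endothelial markers (213 to 252 and 176 to 224 CPM) and all 9 oligodendrocyte markers (3286 to 4327 and 1993 to 3394 CPM). All 7 astrocyte and Bergmann glia markers (2411 to 2629 and 2196 to 2434 CPM) and all 8 interneuron markers (1497 to 1678 and 1381 to 1544 CPM) were lower, as were 9 of the 10 Purkinje cell markers. A lower mean was shared by 53.1% of all genes tested, and by 71.0% of those in the highest band of level. Other lists went the other way, with 7 of 10 granule cell markers and all 5 red blood cell genes higher in *Atm*-KO mice. No marker of these lists was at 0 in every library.

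*Egr1* lies at chr18:34992876-34998049 (+) of GRCm39, *Egr2* at chr10:67371305-67378018 (+), *Egr3* at chr14:70314350-70320063 (+) and *Egr4* at chr6:85485678-85490675 (-). *Nr4a1* lies at chr15:101151980-101172681 (+), *Nr4a2* at chr2:56996842-57014331 (-) and *Nr4a3* at chr4:48045153-48086447 (+).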

How the data were processed

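Libraries were made from cerebellar RNA of 8 mice. Per the submitters' notes, the authors used FastQC 0.11.9, STAR with genome build GRCm39 and featureCounts per gene, and what they deposited are raw counts. Strand and read pair settings are not given in the sources used here. Even numbers made up 67.3% to 73.3% of counts between 1 and 50, so a count may be a read of a pair rather than a fragment, which would make low counts less precise than they appear.

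Of the 56691 genes, 98.8% matched GENCODE vM39. Genes kept by filterByExpr (22423) were normalized by TMM and compared between genotypes with the quasi-likelihood test of edgeR 4.0.16 (R 4.3.3), with Benjamini-Hochberg adjustment over all of them. Log2 CPM used a prior count of 2. DESeq2 1.42.0 and limma 3.58.1 were alternatives, beside other scaling, filters, halved counts and leaving out each mouse. Sequencing depth limits *Egr2* most.

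The 7 genes and all lists were chosen with earlier results of these data known. Named genes were the 7, any called gene of a role list or otherwise the gene with the largest absolute log2 fold change at a mean of at least 1 CPM, and the genes of most alike profile. Other genes named were chosen after their values were seen. Gene lengths and overlaps come from vM39, not from the release used for counting. Proteins were not analysed here.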

Additional observations from a re-analysis of the deposited data

Results flagged for a closer look

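Among 64 groups of 4 mice tested, 6 held a mouse farther from the others than Dixon's critical value allows, where chance gives about 1 group in 20. Of these, 3 concerned genes of the set. *Egr1* was at 54.0 CPM in *Atm*-WT mouse 32M and at 41.8 to 43.5 CPM in the other *Atm*-WT mice. *Egr3* was at 3.98 CPM in the same mouse and at 1.75 to 2.12 CPM in the others. *Egr2* was at 0.0699 CPM in *Atm*-WT mouse 13M, from 6 counts, and at 0.238 to 0.269 CPM in the others.

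The rest concerned marker sums in *Atm*-KO mouse 12M. Granule cell markers summed to 6159 CPM there and to 4903 to 4979 CPM in the other *Atm*-KO mice. Oligodendrocyte markers summed to 1993 CPM against 3166 to 3394 CPM, and mural cell markers to 117 CPM against 159 to 161 CPM. Mouse 12M was also the lowest of its genotype for *Egr2*, *Egr3* and *Nr4a3*, and the highest of it for *Nr4a1*.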

How the results depend on the processing

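The log2 fold change of each of the 7 genes was below 0 under every alternative that gave it a value (18 for each, 16 for *Egr2*). With each mouse left out in turn it ranged from -0.44 to -0.26 for *Egr1*, -0.62 to -0.20 for *Egr2*, -0.88 to -0.37 for *Egr3*, -0.81 to -0.31 for *Egr4*, -0.93 to -0.62 for *Nr4a1*, -0.90 to -0.46 for *Nr4a2* and -1.09 to -0.42 for *Nr4a3*. DESeq2 and edgeR without a filter on low counts each called 1 of the 7, *Nr4a1*. Without a mouse, 0 to 2 of the 7 genes had no overlap between genotypes, with 2 without *Atm*-WT mouse 13M or *Atm*-KO mouse 7F, where 7.07% and 7.71% of all genes tested had every *Atm*-KO mouse below every *Atm*-WT mouse. Of all genes tested, edgeR called 4, against 994 by DESeq2, 435 without a filter, 2 with at least 10 counts in every library, 1 among protein-coding genes alone and 1 to 27 without a mouse, the 27 without *Atm*-WT mouse 13M. Their causes were not tested. Chosen after seeing the data, the spread of 6 of the 7 genes was above the median of their band, and of 6 to 7 without a mouse. With a mouse left out, *Nab2* ranged from -0.029 (without *Atm*-KO mouse 12M) to 0.12 and *Arc* from -0.14 to 0.029 (without *Atm*-WT mouse 2M) in log2 fold change, changing sign. No paired analysis was possible because the labels pair no mice, and the genotypes share only the number 7.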
